A study of Drosophila melanogaster with 91 samples.

Results

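The dpr, DIP and beat genes of Drosophila melanogaster encode 3 families of cell surface and secreted proteins with immunoglobulin domains. They were selected by FlyBase symbol from the whole count table, whatever their level: dpr followed by a number, DIP- followed by a Greek letter name, or a name starting with beat-. The rule found 44 genes among 15682 fly gene identifiers, of which 21 were dpr, 10 were DIP and 13 were beat genes. Another 2 genes with such symbols, beat-IIIa and DIP-lambda, were not analysed here. All 44 had at least 1 count in some embryo.

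Dpr and DIP proteins bind one another in specific pairs across the gap between neighbouring cells, and different neurons carry different members. The pairs guide the choice of synaptic partners and the survival of some neurons, best known from the fly visual system and neuromuscular junction. Beat proteins act through proteins of the Side family. Beat-Ia on motor axons and its partner Side, found along their path and on muscle, steer motor axons out of their bundles towards their targets.

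Transcripts were measured in 91 single embryos laid by caged flies, with no labelled strain, genotype or treatment, each frozen at a set number of minutes before or after it formed cells at cellularization. There was 1 embryo for every 15 min from -15 to 1335 min. The assay was CEL-Seq, which sequences barcoded 3′ ends of polyadenylated RNA, so each value is 1 whole embryo. Embryos were compared as 7 windows of 13 by labelled time: window 1 held -15 to 165 min, window 2 held 180 to 360 min, window 3 held 375 to 555 min, window 4 held 570 to 750 min, window 5 held 765 to 945 min, window 6 held 960 to 1140 min and window 7 held 1155 to 1335 min. The spread within a window therefore also holds the change over its own time span.

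Levels are given as CPM, the usual unit in which a gene's counts are divided by the total gene counts of its library and scaled to a common total. The median library held 1644070 gene counts, where a single count was worth 0.608 CPM, and the range ran from 3662 at 120 min to 3308015. At 120, 210, 825, 1065, 1155 and 1170 min the total was under 548023, the median divided by 3, and these 6 libraries are called shallow below. Libraries carried 4 library indexes that followed time, and libraries sharing an index are called a pool here. Pool 4 ran from -15 to 315 min and pool 5 from 330 to 645 min, both on lane 3. Pool 6 ran from 660 to 990 min and pool 7 from 1005 to 1335 min, both on lane 4. Counts were not divided by gene length, and a gene's level depends on how well its annotated 3′ end matches the embryo's transcripts, so orders between genes are descriptions of these counts.

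Most of these genes were counted mainly in the later embryos. DIP-alpha and dpr6 were present from the first embryo, and dpr14 had 34 counts in 3 of the 4 embryos from -15 to 30 min. beat-IIIc had 100 counts at 60 min and between 0 and 34 in each embryo from 75 to 150 min. At 60 min dpr7 had 30 counts and dpr19 had 9. Of the 44 genes, 20 had any count in window 1, 25 in window 2, 34 in window 3, all 44 in windows 4 and 5, and 43 in windows 6 and 7. With each embryo thinned to 300000 gene counts, an embryo showed 3.80 ± 1.16 of the 44 genes in window 1 (SD, n = 12), 9.41 ± 2.83 in window 3 (n = 13), 26.8 ± 8.28 in window 5 (n = 13) and 29.4 ± 8.35 in window 7 (n = 13). Without thinning the means were 5.54, 11.6, 32.7 and 33.8 genes. In whole embryos, fewer cells of a type and less RNA per cell cannot be told apart.

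**Figure D1:**
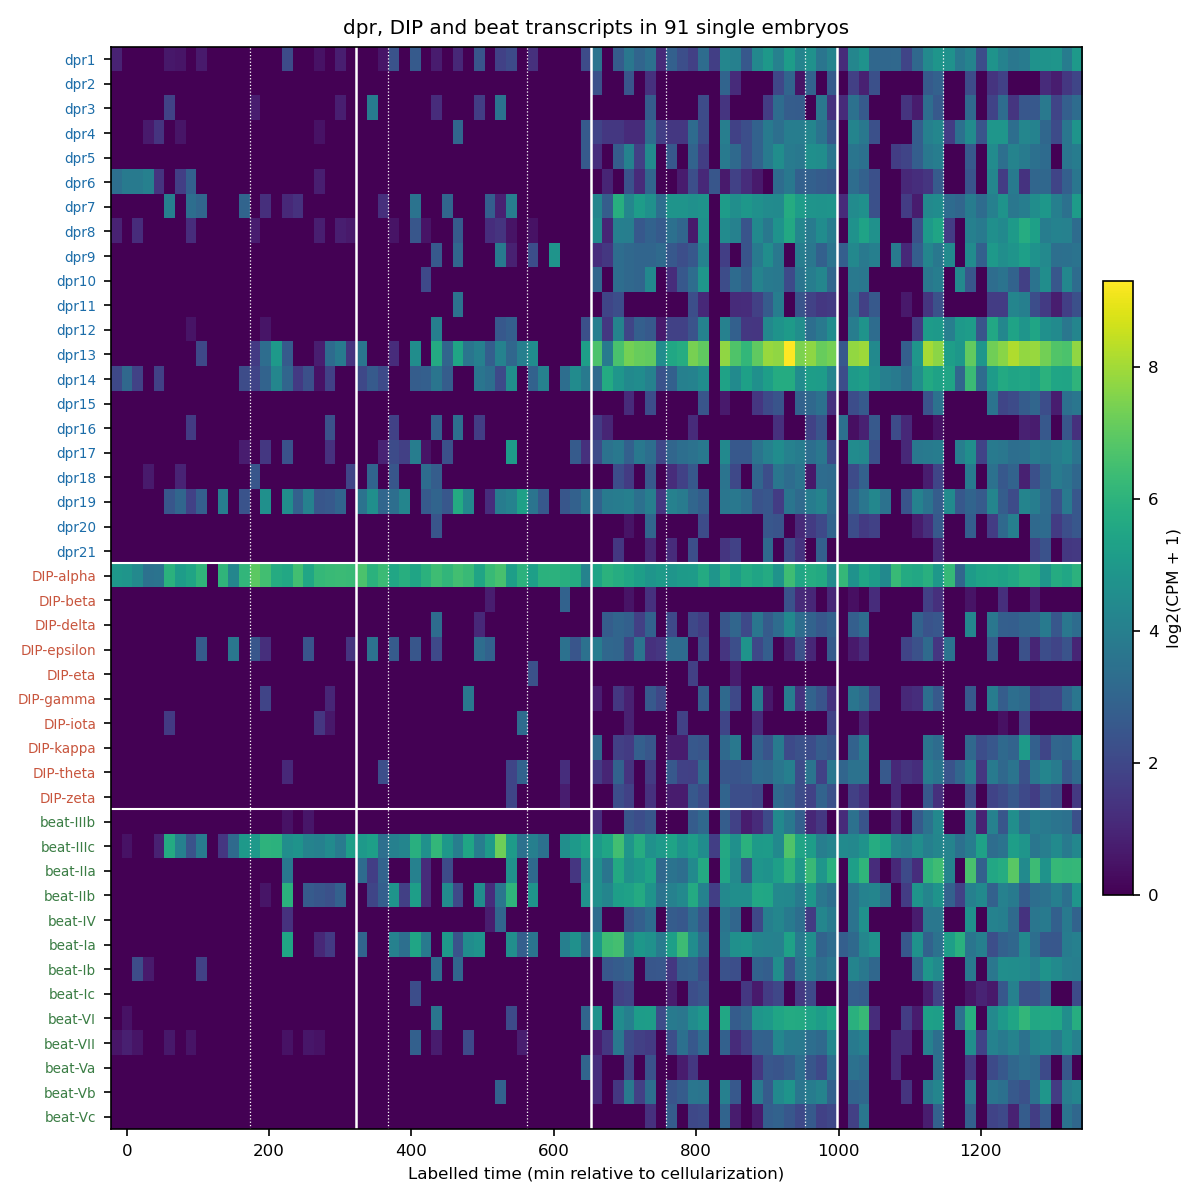
Level of each of the 44 genes (rows, grouped as dpr, DIP and beat) in each of 91 embryos (columns, labelled time in min), as log2(CPM + 1). Solid white vertical lines mark the change of library pool and dotted lines the window borders. Most rows are dark up to about 645 min and bright afterwards, DIP-alpha is bright in nearly every embryo, and dpr6 has a short bright stretch at the left end.

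The highest window mean lay in window 7 for 26 of the 44 genes, namely 14 dpr, 4 DIP and 8 beat genes. Window 1 was the peak of none, window 2 of 1, window 3 of 3, window 4 of 4, window 5 of 6 and window 6 of 4. Of the 8717 genes with enough counts to be tested across time, 35.2% peaked in window 1 and 17.8% in window 7. The first window that reached at least the highest mean divided by 2 was window 5 for 25 of the 44 (13 dpr, 5 DIP and 7 beat genes), and window 1 for a single gene, dpr6. Among the 30 members with enough counts for the test described next, 20 peaked in window 7 and 4 in window 5, and 19 first reached that level in window 5 and 1 in window 1, against 10.0% and 59.8% of all tested genes.

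Variation over labelled time was tested with edgeR's quasi-likelihood F-test on a spline of 5 degrees of freedom over all 91 embryos, with p-values adjusted over all genes tested. A total of 30 of the 44 genes had enough counts for this test, and 29 were called at an adjusted p under 0.05, while the background was 82.1% of all tested genes. All 14 dpr genes and all 10 beat genes that passed the count filter were called, and 5 of 6 DIP genes. DIP-epsilon missed the threshold with an adjusted p of 0.0509 by edgeR. With the library pool as a covariate 12 of the 30 were called (background 36.1%), among them dpr6, dpr13, DIP-alpha, DIP-delta, beat-Ia, beat-IIb and beat-Vb. For the other 18 of the 30, a course over time could not be separated from the change of pool by this test.

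The 14 genes that did not pass the filter are accounted for by their total counts over the 91 embryos. Among dpr genes they were dpr2 with 151 counts, dpr3 with 354, dpr11 with 224, dpr15 with 264, dpr16 with 109, dpr20 with 231 and dpr21 with 82. The DIP genes were DIP-beta with 47, DIP-eta with 16, DIP-iota with 47 and DIP-zeta with 209. The beat genes were beat-Ic with 170, beat-Va with 291 and beat-Vc with 243. DIP-eta was counted in 3 embryos in all, with 11 of its 16 counts in the embryo at 570 min.

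The summed level of the 21 dpr genes was 13.7 ± 7.54 CPM in window 1 (SD, n = 13 in every window), 24.8 ± 16.5 in window 2, 55.3 ± 38.3 in window 3, 132 ± 117 in window 4, 332 ± 232 in window 5, 271 ± 206 in window 6 and 374 ± 158 in window 7. Single embryos ran from 20.3 to 135 CPM in window 3, with a median of 35.6, and from 86.1 to 560 CPM in window 7, with a median of 445. The 13 beat genes summed to 10.4 ± 15.2 CPM in window 1, 77.4 ± 53.9 in window 3, 181 ± 81.2 in window 5 and 199 ± 78.1 in window 7. By contrast the DIP sum moved least, from 36.3 ± 24.2 CPM in window 1 to 78.9 ± 22.0 in window 2 and 80.0 ± 26.5 in window 7. DIP-alpha made up 95.9% ± 11.2 of that sum in window 1 (n = 12 embryos with a DIP count) and 57.0% ± 14.8 in window 7 (n = 13). Without DIP-alpha the other 9 DIP genes followed the dpr course, at 1.46 ± 3.40 CPM in window 1, 5.60 ± 5.51 in window 3, 30.1 ± 16.4 in window 5 and 34.9 ± 17.2 in window 7.

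**Figure D2:**
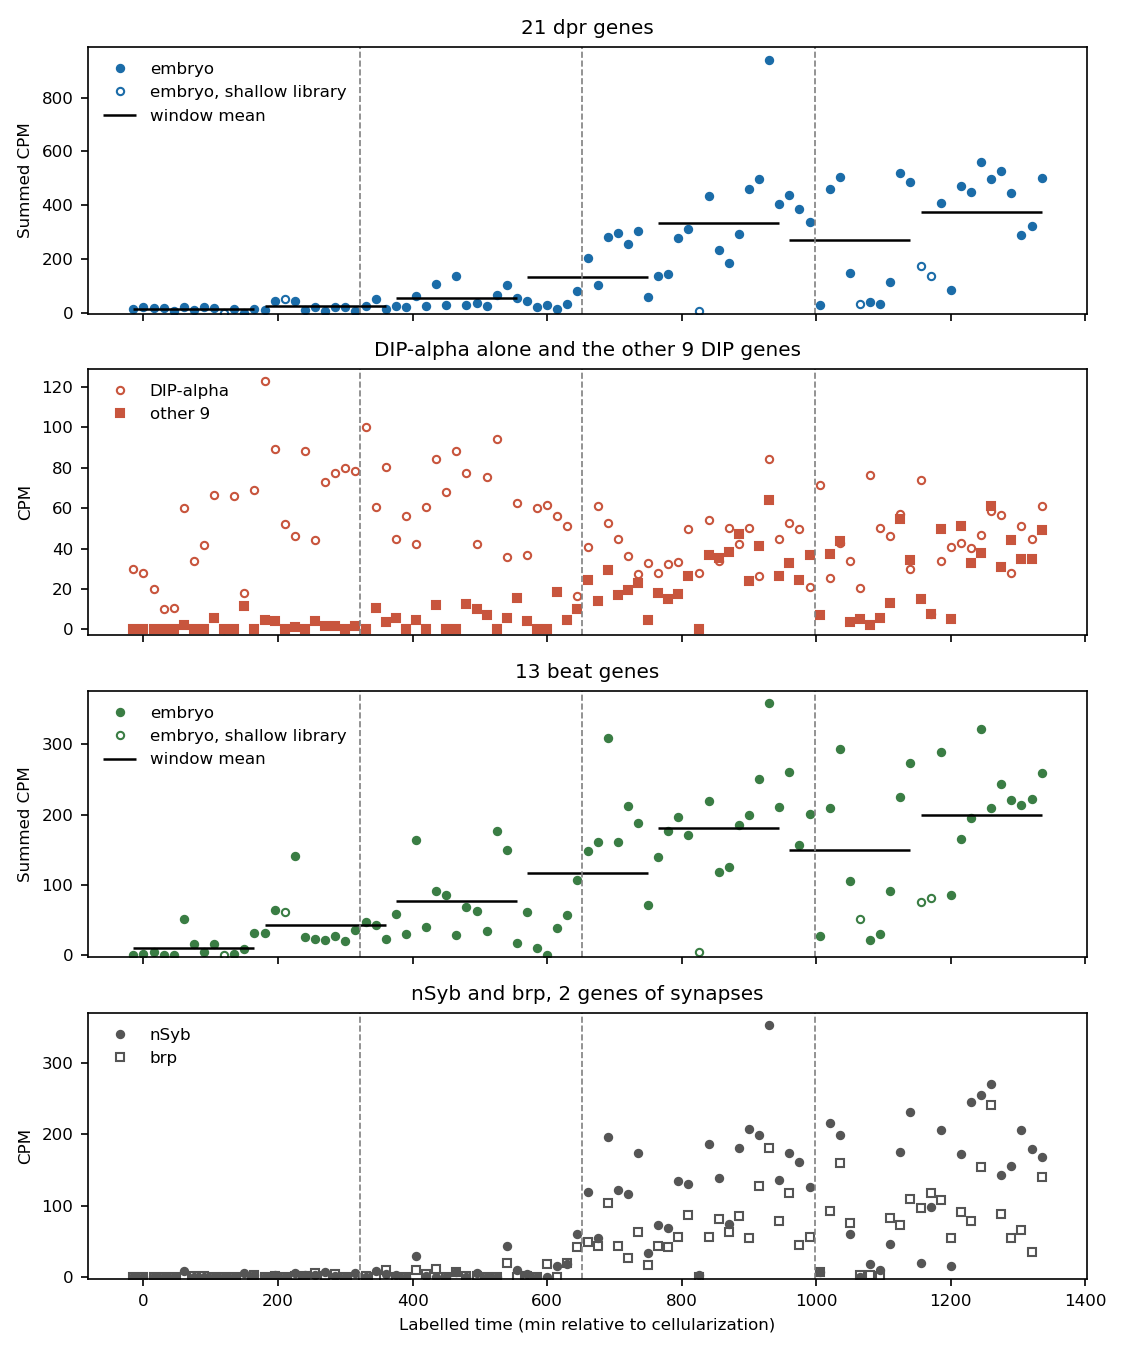
Summed CPM of the 21 dpr genes, of DIP-alpha and the other 9 DIP genes, and of the 13 beat genes, with the CPM of the synaptic genes nSyb and brp, against labelled time in min, 1 point per embryo. Black bars are means of 13 embryos per window, open points in the dpr and beat panels are shallow libraries, and dashed lines mark changes of library pool. The dpr sum stays at or below 135 CPM up to 645 min and spreads widely from 660 min on, with several late embryos near the early level, while single early embryos already reach beat sums of 142 to 177 CPM.

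The main step fell inside window 4, at the change from pool 5 to pool 6. The 6 embryos of that window in pool 5 (570 to 645 min) had a dpr sum of 36.6 ± 23.4 CPM and a beat sum of 45.8 ± 38.9 CPM, and the 7 in pool 6 (660 to 750 min) had 215 ± 98.1 and 179 ± 72.0 CPM. Pool, lane and time cannot be told apart there. Across the border the single embryos at 630, 645, 660 and 675 min had dpr sums of 33.3, 79.2, 204 and 104 CPM. They showed 8, 16, 29 and 22 of the 44 genes. The embryo at 645 min, the last of pool 5, was the highest of the 6 in pool 5 for both the dpr and the beat sum. Window 3, also in pool 5, had dpr sums of up to 135 CPM and beat sums of up to 177 CPM. The 9 neuronal markers summed to 1598 ± 421 CPM in the 6 embryos of pool 5 and 3482 ± 1879 CPM in the 7 of pool 6. The 5 muscle markers summed to 1381 ± 1254 and 7371 ± 5380 CPM, and markers of epidermis and cuticle to 87.0 ± 45.9 and 226 ± 174 CPM. Glial markers stood at 428 ± 138 and 445 ± 166 CPM, and neuroblast markers at 738 ± 216 and 450 ± 446 CPM. The part of these cell types in the result was not tested.

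From 660 min on, 9 embryos had dpr sums within the range of window 3 or below it. The lowest were 6.92 CPM at 825 min, 27.9 at 1005 min, 33.2 at 1065 min, 33.7 at 1095 min and 39.8 at 1080 min. The other 4, at 675, 750, 1110 and 1200 min, lay between 57.4 CPM and the highest embryo of window 3, 135 CPM. In the 5 lowest nSyb, the synaptic vesicle protein, stood between 0 and 17.7 CPM, against a window 7 mean of 164 CPM, and Mhc, the muscle myosin, between 9.70 and 95.2 CPM against 1687 CPM. The embryo at 1200 min had 15.1 CPM of nSyb and 55.0 CPM of Mhc, inside those ranges. Of the 9 libraries, those at 825 and 1065 min were shallow. The highest dpr sum, 941 CPM, belonged to the embryo at 930 min, which also had the highest nSyb level of all, 353 CPM. Whether these embryos match their labelled age was not tested.

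Among the dpr genes, which encode the partners of DIP proteins, dpr13 led. Its lowest, median and highest values were 0, 11.1 and 50.4 CPM in window 3, 0, 131 and 628 CPM in window 5, and 28.4, 155 and 291 CPM in window 7. It made up 36.2% ± 9.08 of the dpr sum in window 7 (SD, n = 13). In window 1 its 5 counts all came from the embryo at 105 min.

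dpr14 followed, at a lowest, median and highest of 0, 5.65 and 22.9 CPM in window 3 and 7.36, 42.2 and 79.5 CPM in window 7. The 2 ranges overlapped, but the median of window 7 lay above every embryo of window 3. dpr12 was counted in 3 of 13 embryos of window 3 and in all 13 of window 7, where it ran from 4.44 through a median of 24.6 to 46.6 CPM. dpr7, like dpr13, had its highest mean in window 5, at 26.5 ± 11.3 CPM, and 16.6 ± 8.42 CPM in window 7 (SD, n = 13 each).

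The remaining dpr genes had lower levels, with highest window means between 1.68 CPM for dpr21 and 19.5 CPM for dpr8. dpr19 stood apart in time. It averaged 9.82 ± 8.99 CPM in window 2 and 14.1 ± 15.2 CPM in window 3, its highest, and between 8.18 and 9.76 CPM in windows 4 to 7. It had no count up to 45 min, and 9, 16, 6 and 10 counts in the embryos at 60, 75, 90 and 105 min.

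DIP-alpha, whose protein binds Dpr6 and Dpr10, was the most abundant of its family and was counted in every embryo other than the library of 3662 counts at 120 min. Its mean was 34.9 ± 23.8 CPM in window 1, 76.3 ± 22.0 in window 2 and 64.0 ± 19.3 in window 3 (SD, n = 13 each), and it stayed between 42.8 and 45.1 CPM in windows 4 to 7. The 5 embryos from -15 to 45 min had 29.7, 27.9, 19.7, 10.2 and 10.7 CPM, and the embryo at 60 min had 60.1 CPM. The highest value was 123 CPM at 180 min.

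The next DIP genes were DIP-theta, DIP-kappa and DIP-delta, with window 7 means of 9.21 ± 4.79, 8.05 ± 8.62 and 7.26 ± 5.51 CPM. DIP-kappa had no count in any of the 39 embryos of windows 1 to 3. DIP-theta had its first counts in window 2 and was found in 2 of 13 embryos of window 3 and in 13 of 13 in window 7. DIP-epsilon differed from these 3, with its highest means in windows 4 and 5, at 5.41 ± 4.81 and 5.10 ± 7.14 CPM. The highest window means of the other 5 DIP genes ran from 0.308 CPM for DIP-eta to 5.23 CPM for DIP-gamma.

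In the beat family, beat-IIa and beat-VI had their highest means in window 7, at 52.9 ± 37.3 and 34.5 ± 22.5 CPM, while beat-Ia, beat-IIb and beat-IIIc were counted in 10 or more of the 13 embryos of window 3. The lowest, median and highest values of beat-IIa were 0, 0 and 25.3 CPM in window 3 and 0, 53.1 and 121 CPM in window 7. beat-VI was counted in 2 of 13 embryos of window 3 and in 11 of 13 of window 7, with a median there of 42.7 CPM. beat-Ia, the motor axon gene after which the family is named, had no count in window 1, and its mean went from 4.05 ± 11.8 CPM in window 2 through 14.9 ± 13.5 in window 3 to 26.6 ± 28.3 in window 4 and 15.8 ± 15.5 in window 7 (SD, n = 13 each). Its largest value in window 2 was 42.7 CPM, at 225 min, where the neuronal markers were also at the highest level of that window, 2838 CPM.

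beat-IIIc was the earliest of the family in quantity. It had 2 counts in all over the 5 embryos from -15 to 45 min, then 100 counts at 60 min, equal to 50.5 CPM. The embryo at 60 min also had the highest neuronal marker sum of window 1, 981 CPM, and whether it matches its labelled age was not tested. From 75 to 150 min beat-IIIc stood at 15.6, 4.19, 13.4, 0, 1.78 and 8.20 CPM, and at 165 min at 31.3 CPM. Its mean reached 29.8 ± 17.0 CPM in window 2 and 39.6 ± 37.9 in window 3, where the embryo at 525 min alone held 151 CPM, and was 18.7 ± 9.83 CPM in window 7. The highest window means of the other 9 beat genes ran from 3.07 CPM for beat-Ic to 24.1 CPM for beat-IIb.

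In the first 2 embryos, at -15 and 0 min, DIP-alpha and then dpr6 had the most counts of the 44 genes. The early counts of dpr6, and those of dpr7, dpr14 and dpr19, were picked out after the values were seen. For dpr6 the embryos at -15, 0, 15 and 30 min had 22, 36, 31 and 26 counts, or 9.62, 13.4, 13.3 and 15.6 CPM. The embryo at 45 min had 2 counts, the next had none, those at 75 and 90 min had 5 and 15 counts, and none was found from 105 to 165 min. A single embryo of window 2 had 2 counts, window 3 had none, and 0 counts over the pooled library of window 3 allows up to 0.146 CPM. The gene returned at 1.03 ± 2.16 CPM in window 4 and 5.76 ± 5.73 CPM in window 7.

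The annotation places several other genes on top of dpr6. Non-coding RNAs are annotated over it on both strands. The coding genes CG14160, CG32053, CG32054, CG42826 and Srg2 overlap it on the other strand, and all 5 had 0 counts in the 4 earliest embryos. Whether the counting used strand is not given in the sources used here. DIP-alpha is overlapped by 2 genes on its strand, CG2875 and a non-coding RNA, and by 3 on the other. CG2875 averaged between 0.443 and 3.74 CPM in the 7 windows, ppk8 at most 0.190 CPM, and CG13021 had no count, while the non-coding RNAs were not analysed here.

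dpr7 followed another early course. It had no count up to 45 min, and then 30, 22, 12 and 10 counts in the embryos at 60, 90, 105 and 165 min, the highest of them 15.2 CPM. In window 2 it averaged 0.411 ± 0.646 CPM.

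**Figure D3:**
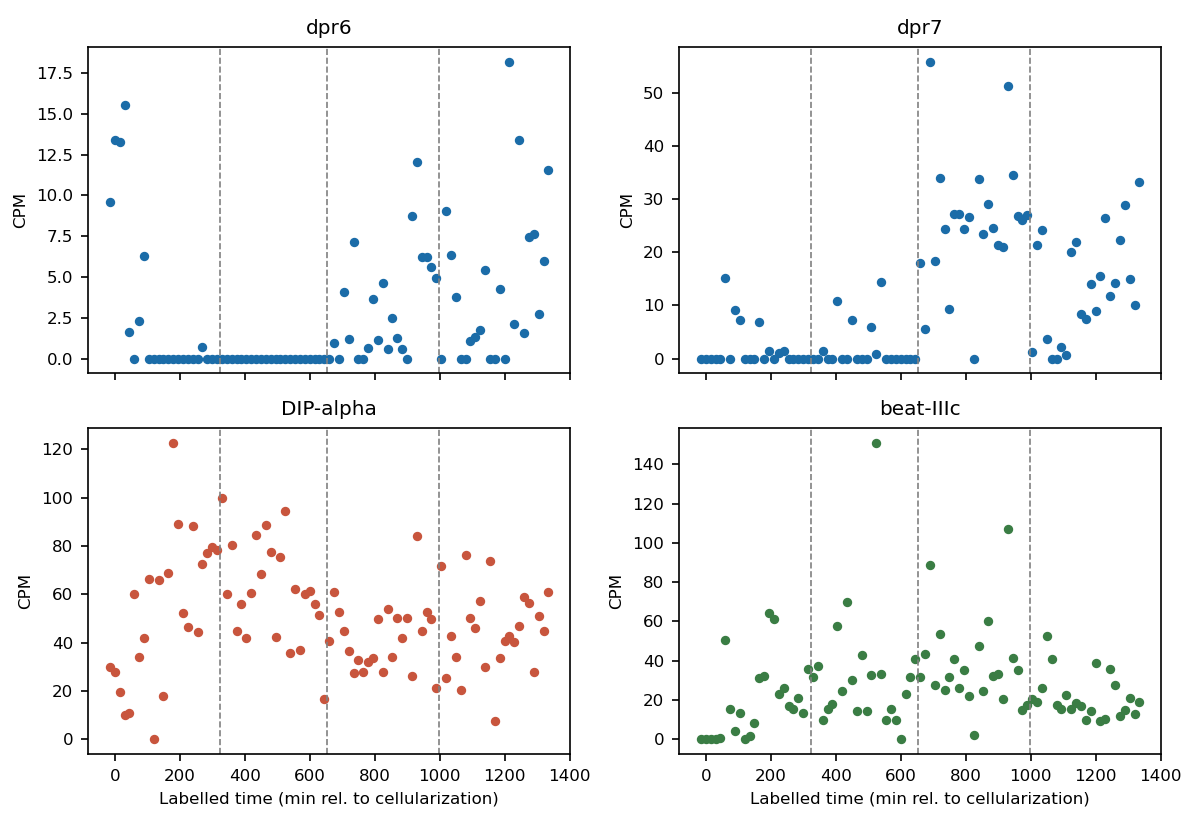
CPM of dpr6, dpr7, DIP-alpha and beat-IIIc against labelled time in min, 1 point per embryo, with dashed lines at changes of library pool. dpr6 is present at the 4 earliest times, is lost and returns after 660 min, dpr7 has scattered early points from 60 min, and DIP-alpha and beat-IIIc are high through the middle of the series.

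Each window was then set against the next, by edgeR's quasi-likelihood F-test in the 26 embryos of the pair. From window 1 to window 2 only 2 of the 44 genes had enough counts, and DIP-alpha was called higher, with a log2 difference of 1.08 ± 0.33 (SE) and an edgeR adjusted p of 0.0176. The background was 11.1% of genes called higher and 14% lower. Within pool 4 alone, which holds all of window 1 and 10 embryos of window 2, the difference was 1.15 ± 0.39 (adjusted p = 0.0405 by edgeR). It was lost with library sizes taken from the spike-ins, synthetic RNAs added to each sample, where it was 0.90. beat-IIIc, the other gene tested, differed by 1.48 ± 0.71 and was not called by edgeR (adjusted p = 0.128).

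In the other 5 adjacent comparisons no member was called by edgeR, of 4, 7, 13, 21 and 25 tested in order of time. At an unadjusted p under 0.05 there were 0, 2, 4, 0 and 2 genes, all higher in the later window. They were dpr13 and dpr14 from window 3 to 4, dpr1, dpr8, dpr13 and dpr17 from window 4 to 5, and dpr9 and dpr14 from window 6 to 7. The share of all tested genes under that unadjusted threshold is not given here, so these genes are not read as changed. DESeq2 also called 0 in each of these 5 comparisons, and limma voom called 2 from window 4 to 5. No background is given here for DESeq2 or limma voom, and the shares that follow are those of edgeR. The background was low as well, at 2.13% higher and 1.39% lower from window 2 to 3, 0.252% and 0.018% from window 3 to 4, 0% and 0.0956% from window 4 to 5, 0.484% and 0.0645% from window 5 to 6, and 0% both ways from window 6 to 7.

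Without the filter on low counts, 7 genes were called higher and 2 lower from window 1 to 2 (backgrounds 20.1% and 13%), 11 higher from window 2 to 3 (8.16%), 10 higher from window 3 to 4 (11.7%) and 1 higher from window 4 to 5 (0.569%). None was called lower in these 3 comparisons, against backgrounds of 5.12%, 2.38% and 0.485%. In the last 2 comparisons no member was called, where the background was 0.294% higher and 0.0527% lower from window 5 to 6 and 0.00756% higher and 0% lower from window 6 to 7. Many of these calls rested on few embryos. Of the 11 from window 2 to 3, 6 had counts in only 1 embryo of window 3. The 2 lower genes were dpr6, at 4.78 ± 6.07 CPM in window 1 and 0.0546 ± 0.197 CPM in window 2 (adjusted p = 0.000637 by edgeR), and beat-Ib, whose 13 counts in window 1 came from 3 embryos. The 1 gene from window 4 to 5 was beat-Vc, which went from 3 counts in 1 embryo to 65 counts in 10 embryos.

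The long step from window 3 to window 7 gave clearer differences. Of 12 members with enough counts 7 were called higher and none lower, where the background was 29.8% higher and 23.5% lower. The 7 were 6 dpr genes and 1 beat gene. The filter admits a gene that is well counted in 1 of the 2 windows only. dpr12 had 45 counts in window 3 and 627 in window 7, dpr9 33 and 460, and beat-IIa 104 and 1407. A gene admitted through window 7 could hardly be called lower there, so the direction of such calls is not a result by itself. dpr13 had a log2 difference of 3.90 ± 0.64 (SE, edgeR adjusted p = 1.41e-05), dpr14 one of 3.59 ± 0.62, dpr12 4.15 ± 0.82, dpr9 3.73 ± 0.84, dpr7 3.19 ± 0.73 and dpr17 2.25 ± 0.77 (adjusted p = 0.0145). beat-IIa had the largest difference of the 12, 4.65 ± 0.85 (adjusted p = 5.13e-05 by edgeR).

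The other 5 of the 12 were not called. beat-Ia differed by 0.78 ± 0.60, beat-IIb by 0.59 ± 0.65, DIP-alpha by 0.15 ± 0.27, dpr19 by 0.09 ± 0.58 and beat-IIIc by -0.51 ± 0.42 on the log2 scale. For DIP-alpha, dpr19 and beat-IIb the mean CPM was lower in window 7 than in window 3 while the fitted difference was above 0, and the cause of this was not tested. The fit uses TMM-scaled library sizes and the mean CPM does not. Without the 2 shallow libraries of window 7, at 1155 and 1170 min, 11 of 16 genes were called higher and none lower (backgrounds 30.6% and 23.2%). The added ones were dpr8, beat-Ib, beat-VI and beat-VII, which had between 16 and 26 counts in all of window 3. With spike-in library sizes 6 of the 12 were higher and beat-IIIc was lower (backgrounds 15.7% and 42%). Over all genes tested the median difference moved from 0.06 to -0.78, with 865 genes called higher and 2313 lower against 1642 and 1292. Window 3 lies wholly in pool 5 and window 7 wholly in pool 7, so the change of pool and the passage of time cannot be told apart in this comparison.

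Without the filter 34 of 43 genes were called higher and none lower, where the background was 34.4% higher and 13.4% lower. They were 19 of 21 dpr, 5 of 9 DIP and 10 of 13 beat genes, each counted in at least 4 embryos of window 7. Of the 34, 9 had no count in window 3: dpr2, dpr5, dpr6, dpr15, dpr21, DIP-kappa, beat-IIIb, beat-Va and beat-Vc. Against a floor of 3 counts over the 13 libraries of window 3, their pooled level in window 7 was at least 7.74-fold higher for dpr21 and at least 70.9-fold higher for beat-IIIb, with the other 7 in between. The 2 dpr genes not called were dpr16 and dpr19.

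**Figure D4:**
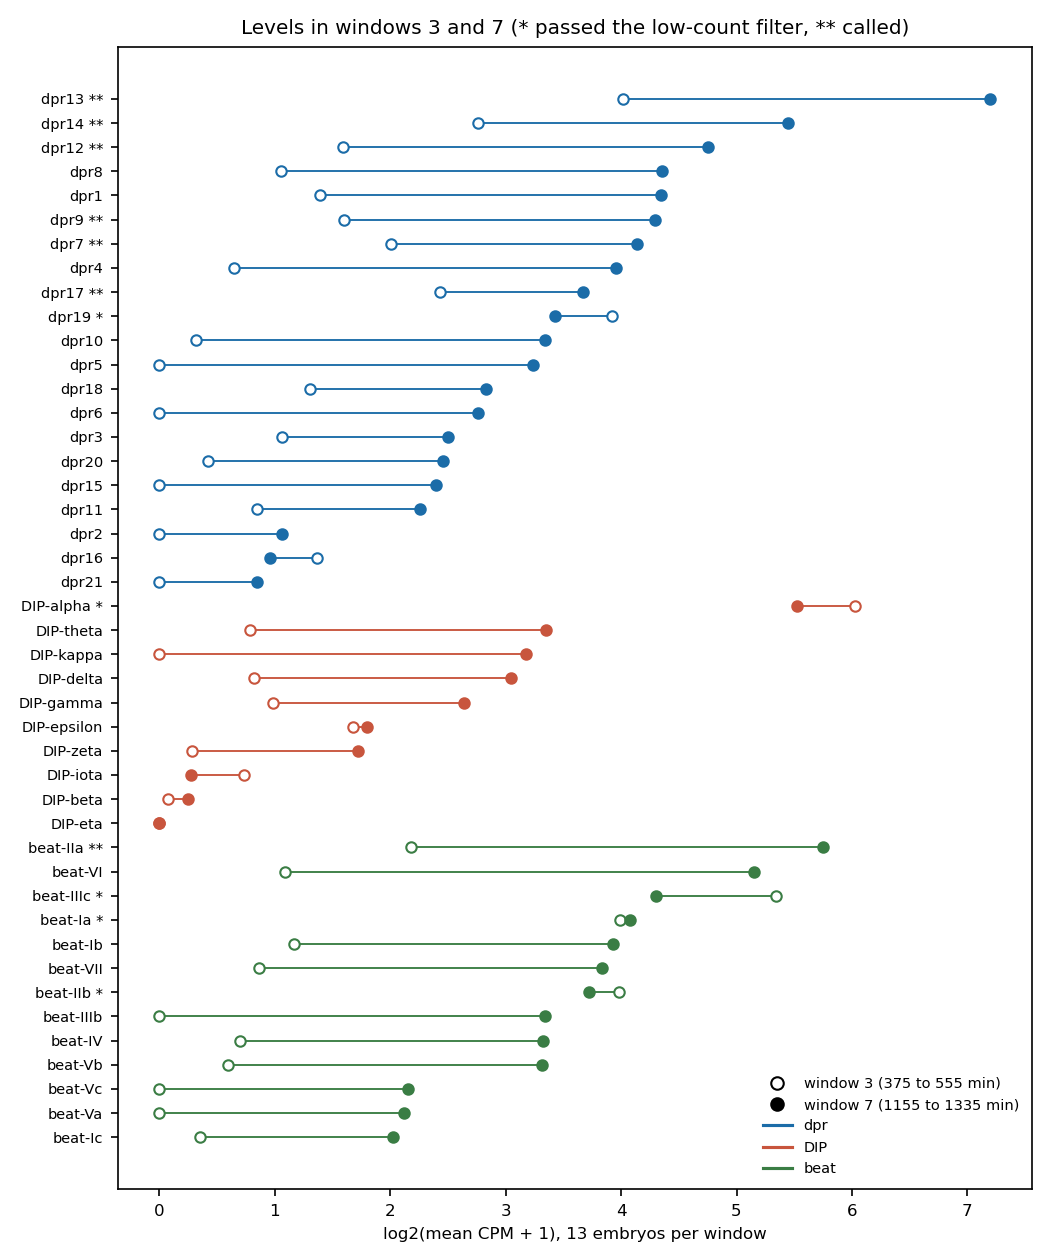
Mean level of each of the 44 genes in window 3 (open points) and window 7 (filled points), 13 embryos each, as log2(mean CPM + 1) and ordered by the window 7 level within a family. One asterisk marks genes that passed the count filter and 2 mark those called by edgeR. Most dpr and beat genes lie to the right in window 7, while DIP-alpha, dpr19, dpr16, DIP-iota, beat-IIb and beat-IIIc have the lower mean there.

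The known binding partners were set side by side. DIP-alpha was present throughout, but its partners dpr6 and dpr10 averaged 0 and 0.246 CPM in window 3 and 5.76 ± 5.73 and 9.12 ± 7.34 CPM in window 7 (SD, n = 13 each). DIP-gamma and its partner dpr11 both appeared late, at 0.975 ± 3.51 and 0.801 ± 2.89 CPM in window 3 and 5.23 ± 4.51 and 3.79 ± 5.75 CPM in window 7. In window 3 both were counted in only 1 embryo. DIP-delta and dpr12 likewise went from 0.764 ± 2.44 and 2.01 ± 4.44 CPM to 7.26 ± 5.51 and 26.0 ± 12.9 CPM.

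In window 2 side was counted in 12 of 13 embryos and beat-Ia in 4 of 13, with a median of 0 for beat-Ia. In window 3 they were counted in 13 and 10 of 13 embryos. side was at 41.4 ± 38.8 CPM in window 2, 61.8 ± 37.9 in window 3 and 93.4 ± 64.6 in window 4, and beat-Ia had its highest mean in the same window 4. beat-VI and side-II had at most 1.12 CPM on average up to window 3 and had their highest means in window 7, at 34.5 ± 22.5 and 13.5 ± 9.11 CPM. beat-IIa and side-IV parted late, since beat-IIa was highest in window 7 and side-IV in window 5, at 45.1 ± 22.5 CPM against 24.4 ± 9.02 CPM in window 7. beat-Va, beat-Vb, beat-Vc and their partner side-VI had no or few counts up to window 3 and averaged 3.34, 8.93, 3.44 and 11.9 CPM in window 7, where the first 3 were counted in 8, 10 and 9 of 13 embryos. None of these pairs was tested for a joint course.

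**Figure D5:**
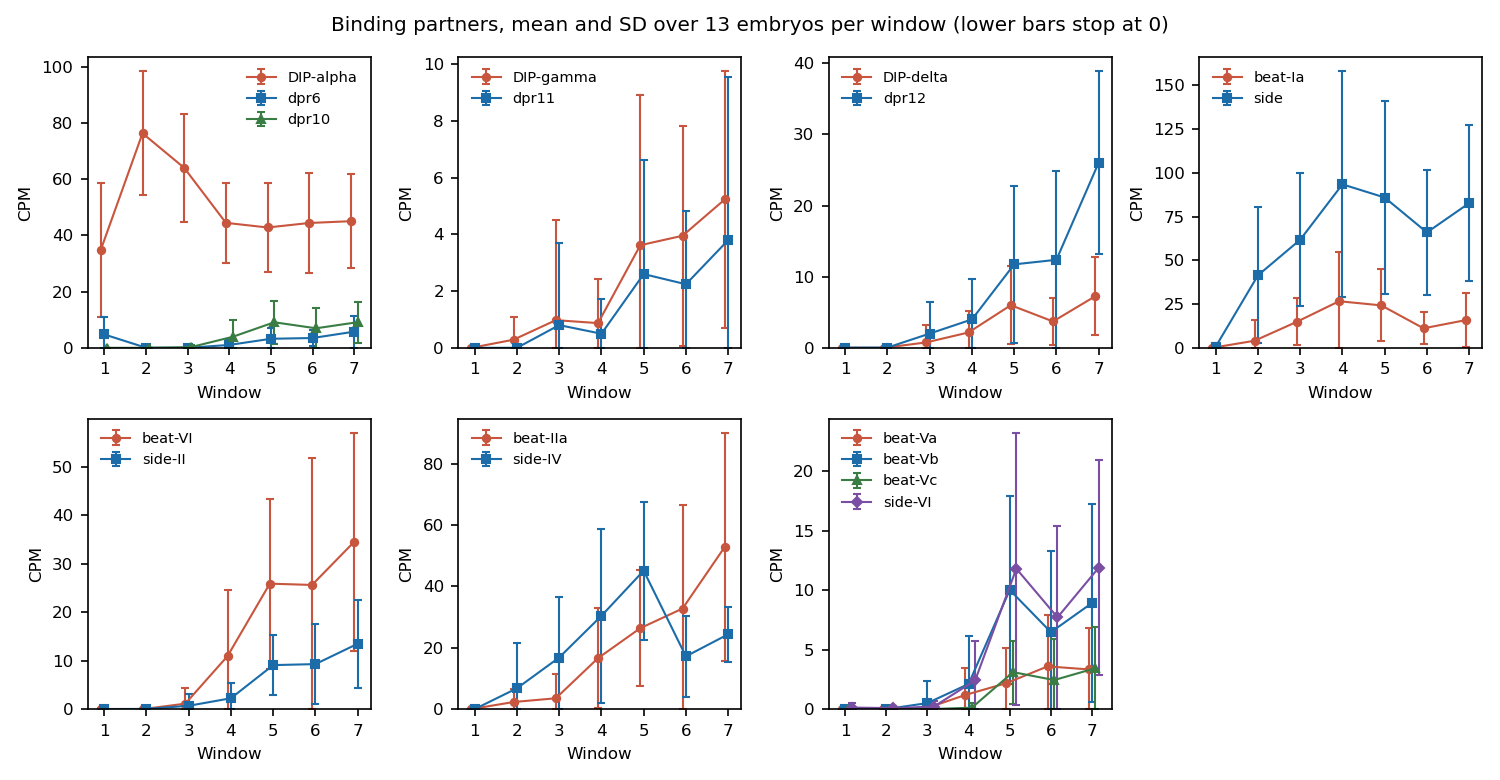
Mean CPM of 7 sets of binding partners in windows 1 to 7, with SD bars over 13 embryos that stop at 0 on the lower side. DIP-alpha is high before dpr10, and before dpr6 apart from the window 1 point of dpr6. Next, side is present from window 2, where beat-Ia was counted in only 4 of 13 embryos. side-IV is above beat-IIa in windows 2 to 5 and below it in windows 6 and 7.

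The 8 side genes summed to 13.7 ± 21.0 CPM in window 1, 116 ± 66.1 in window 2, 220 ± 113 in window 5 and 184 ± 42.3 in window 7 (SD, n = 13 each). The lowest embryo of window 7, at 1320 min, had 103.5 CPM. The median of window 2, 100.6 CPM, lay below every embryo of window 7. From window 3 to window 7, 2 of 4 side genes tested were called higher by edgeR and 1 lower. side was higher by 1.11 ± 0.30 and side-VIII by 1.84 ± 0.56 on the log2 scale, and side-V was lower by -1.39 ± 0.30. With spike-in library sizes none of the 4 was called higher and 1 was called lower.

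Of 33 other recognition genes found in the table, 27 could be tested from window 3 to window 7, and 10 were called higher and 6 lower, with a median difference of 0.09 against 0.06 for all genes. Dscam4, an immunoglobulin receptor, was higher by 8.26 ± 0.48, and Nrx-1, the presynaptic neurexin, by 5.65 ± 0.72. robo2, a receptor of the midline repellent Slit, was lower by -2.14 ± 0.48 and trn, a leucine-rich repeat protein, by -1.93 ± 0.37. With spike-in library sizes the counts were 4 higher and 13 lower.

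Markers of cell types moved over the same step. Of 9 neuronal markers 6 were called higher, with nSyb higher by 5.21 ± 0.79 and the active zone gene brp by 5.25 ± 0.67, while elav, present in neurons from early on, differed by -0.45 ± 0.40. For neuroblasts, the neural stem cells, 3 of 5 tested markers were lower. Of 7 glial markers 1 was higher and 1 lower, 4 of 5 muscle markers were higher and 3 of 3 tested markers of epidermis and cuticle were higher. With spike-in library sizes 4 neuronal markers were higher and 1 lower, 5 neuroblast and 4 glial markers were lower, 4 muscle markers were higher and 1 lower, and 2 cuticle markers were higher. The part of these cell types in the changes of the dpr, DIP and beat genes was not tested.

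Several members neighbour each other in the gene order of the reference annotation, which is of a later build than the counts. dpr6 and dpr10 on 3L are immediate neighbours among coding genes and so are dpr4 and dpr5 on 3R, each pair on opposite strands. Only 1 coding gene lies between dpr15 and dpr17, between DIP-eta and DIP-theta, between beat-Ib and beat-Ic, and between beat-Va and beat-Vc. Of the 13 beat genes 5 lie on 2L and 8 on 3R. Mean levels of neighbours in windows 3 and 7 were as follows. DIP-theta was at 0.727 and 9.21 CPM, and DIP-eta had no count in either. beat-Ia was at 14.9 and 15.8 CPM, beat-Ib at 1.24 and 14.3 CPM and beat-Ic at 0.276 and 3.07 CPM. dpr4 was at 0.561 and 14.5 CPM, and dpr5 at 0 and 8.45 CPM. The likeness of neighbours was not tested.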

How the data were processed

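The values the authors deposited are raw counts of reads, 1 per gene and library. Per the submitters' processing notes, CASAVA 1.8, Bowtie2 2.1.0 and HTSeq 0.5.4p3 were used with build BDGP5. No source used here states the strand setting or whether molecular identifiers were used. Of the sum of the whole table, spike-ins and summary lines included, 16.6% fell outside genes and 2.44% on places claimed by several genes. The 5 summary lines and the 92 spike-ins were left out of library sizes and tests. A deposited sample sheet gave the lane and the library index, and the pools named here are groups of libraries with the same index.

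Symbols came from the gene name table of another build and matched 15002 identifiers, so no coordinates are given. Sequences were not analysed here. The listed genes Nrg, wupA, Ten-a, Dscam2, hbs and Fas1 were not matched by symbol and not used. Members and gene lists were chosen with earlier results of these data known. CPM uses the gene counts of each library, without TMM. Tests were edgeR 4.0.16 quasi-likelihood F-tests (R 4.3.3, limma 3.58.1) with TMM, filterByExpr and Benjamini-Hochberg adjustment over all genes tested, and calls had an adjusted p under 0.05. Genes named were the 4 with the highest window mean per family, called genes, known binding partners and those under the count filter, and other named genes were chosen after their values were seen. Parentage is not labelled, and p-values reflect only how much these particular embryos varied, which may in part be technical. Floors cover counting error only, since amplified reads are not independent molecules. Alternatives were DESeq2 1.42.0 and its size factors, spike-in library sizes, limma voom, no low-count filter, no shallow libraries, single pools, a pool covariate and a spline of 3 degrees of freedom. The tests were also tried on simulated counts, and the outcome is not given here.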

Additional observations from a re-analysis of the deposited data

How the results depend on the processing

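The number of members called higher from window 1 to window 2 was 1, and became 0 with spike-in library sizes, 7 without the low-count filter and 2 with limma voom, while the number lower went from 0 to 2 without the filter. The number higher from window 2 to window 3 went from 0 to 11 and from window 3 to window 4 from 0 to 10 without the filter, where more genes were tested. From window 4 to window 5 it went from 0 to 1 without the filter and to 2 with limma voom. From window 3 to window 7 it went from 7 to 34 without the filter and to 11 without the shallow libraries, and the number lower went from 0 to 1 with spike-in library sizes. For the spline, 29 calls became 12 with the pool as a covariate. In the comparison of windows 3 and 7, spike-in library sizes turned DIP-alpha from 0.15 to -0.44 and beat-Ia from 0.78 to -0.51 on the log2 scale, neither called either way, took dpr17 to 0.95, no longer called, and beat-IIIc to -1.09, called. beat-IIIc from window 1 to window 2 was called with limma voom at 3.35. Beyond the change in genes or samples tested, the cause was not tested. The other 65 alternatives run on counts of calls, family levels and the order of members stayed within 1.5 times the main count or 1 SD. Most of these were counts of 0 that stayed 0, largely between adjacent windows where few genes of the whole table were called. Such counts say little about how stable the results are. Within pools 5, 6 and 7 no gene of the whole table was called between adjacent windows, so the 0 members called there say nothing about the members. No paired analysis was possible because the embryos carry no replicate numbers shared between windows. A gene at a level under 3 counts over a window, a floor between 0.124 and 0.151 CPM, could be missed at this depth. Genes with 1 or 2 counts in a window were included where genes with any count are given.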
